A study of Mus musculus with 2 samples.

Results

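The sarcomeric myosin heavy chains are the motor proteins of the thick filament, and 8 of their genes are described here (Myh1, Myh2, Myh3, Myh4, Myh6, Myh7, Myh7b and Myh8), beside 13668 genes measured on both arrays in all. They were chosen by gene name in the scanner files, which gave 13 of 55672 probes: 4 for Myh8, 2 each for Myh6 and Myh3, and 1 for each other gene. The N2ICD sample was tibialis anterior muscle of an adult male C57BL/6 mouse carrying activated Notch2 (N2ICD, the intracellular part of the receptor) as a transgene, and the control sample was the same muscle of an adult male C57BL/6 mouse labelled only as control. Each group had 1 sample, labelled with Cy3 and hybridised to 1 Agilent array. The labels name neither the promoter that drives the transgene nor how many animals gave each sample. According to the series title, the study ties Notch2 in muscle fibres to fibre types, which heavy chain isoforms define.

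A muscle fibre moves by heavy chain heads that pull on actin, and the isoform it carries sets how fast it contracts and how much ATP it uses. In adult rodent limb muscle, slow fibres carry the product of Myh7, while fast fibres carry type IIa (Myh2), IIx (Myh1) or IIb (Myh4) myosin in order of rising speed. Embryonic (Myh3) and perinatal (Myh8) isoforms are made before birth and again in regenerating fibres, and Myh6 encodes the alpha chain of the heart. Mouse tibialis anterior is a fast muscle in which type IIb and IIx fibres prevail.

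The probe sequences matter here because 1 Myh8 probe was among the brightest of each array and a related Myh3 probe was dim. The pair is printed 5′ to 3′ as deposited, with capitals for letters that match when the 2 probes are laid over each other without gaps (29 of 48 overlapping letters). The Myh8 probe lies at chr11:67121925-67121984 and the Myh3 probe at chr11:66915107-66915166, both on mm9 and the plus strand.
Myh8, last probe: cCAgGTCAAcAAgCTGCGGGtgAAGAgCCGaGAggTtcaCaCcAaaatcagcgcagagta
Myh3, first probe: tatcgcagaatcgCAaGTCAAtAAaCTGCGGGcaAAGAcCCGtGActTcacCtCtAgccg

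The 250 bases upstream of the annotated start are shown for the 3 genes with a difference of at least 2-fold and for Myh4 as the type IIb gene, from RefSeq on GRCm38.p6. All 8 members matched an entry. The windows are chr14:54994550-54994799 on the minus strand (Myh7), chr2:155610993-155611242 on the plus strand (Myh7b), chr11:67170777-67171026 on the plus strand (Myh2) and chr11:67237562-67237811 on the plus strand (Myh4). Capitals mark letters found by a search on both strands for the E-box CANNTG bound by myogenic factors, the MCAT box CATTCC, the RBPJ core TGGGAA through which Notch acts, TATAAA, and a MEF2 site.
Myh7: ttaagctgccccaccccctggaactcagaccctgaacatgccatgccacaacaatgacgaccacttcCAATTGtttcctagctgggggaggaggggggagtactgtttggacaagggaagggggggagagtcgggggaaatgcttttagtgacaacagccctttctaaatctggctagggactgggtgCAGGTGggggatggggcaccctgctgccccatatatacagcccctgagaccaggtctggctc
Myh7b: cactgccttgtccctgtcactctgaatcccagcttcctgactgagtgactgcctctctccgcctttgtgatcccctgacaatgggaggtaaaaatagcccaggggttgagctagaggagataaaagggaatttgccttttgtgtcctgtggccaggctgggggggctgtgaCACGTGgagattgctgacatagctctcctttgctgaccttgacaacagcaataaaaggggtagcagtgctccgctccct
Myh2: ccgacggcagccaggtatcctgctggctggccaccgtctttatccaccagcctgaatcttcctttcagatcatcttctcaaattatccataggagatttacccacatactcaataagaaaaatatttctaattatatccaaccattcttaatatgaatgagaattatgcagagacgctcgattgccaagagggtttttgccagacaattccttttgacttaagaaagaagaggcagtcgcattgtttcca
Myh4: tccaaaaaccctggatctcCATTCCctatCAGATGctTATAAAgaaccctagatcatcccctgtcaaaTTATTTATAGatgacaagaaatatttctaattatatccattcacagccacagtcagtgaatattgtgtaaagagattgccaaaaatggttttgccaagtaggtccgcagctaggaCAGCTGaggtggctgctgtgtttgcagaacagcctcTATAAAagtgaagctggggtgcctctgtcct

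An E-box was found at positions -183 and -62 of Myh7 and -79 of Myh7b, counted back from the start, and no motif searched was in the Myh2 window. The RBPJ core was in the windows of Myh3 (-205) and Myh8 (-150) and in none of the other 6 members. TATAAA lay at -32 in Myh1, -31 in Myh4 and -29 in Myh3. Of 32841 mouse windows of this length, 66.2% held an E-box, 12.6% the MCAT box, 21.6% the RBPJ core, 12.4% TATAAA and 2.92% the MEF2 site. In Myh1, Myh4 and Myh8 the MEF2 site overlapped a TATAAA match. A match is only a match of letters.

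Each of Myh6, Myh7 and Myh7b also harbours a microRNA in an intron. Those of Myh7 and Myh7b are known from mouse muscle to help set fibre type. Their mature sequences from RefSeq (GRCm38.p6) are given with the seed, bases 2 to 8, in capitals. The miRNAs themselves were not analysed here. miR-208b-3p (in Myh7) and miR-208a-3p (in Myh6) carry the same seed.
mmu-miR-208b-3p: aUAAGACGaacaaaagguuugu
mmu-miR-208a-3p: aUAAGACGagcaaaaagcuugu
mmu-miR-499-5p (in Myh7b): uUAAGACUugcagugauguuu

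Of 59305 spots that were no controls, 24982 in N2ICD muscle and 24916 in control muscle were well above background, and 0 were saturated. Both arrays were on the same slide and scanned in the same scan. Values below are processed signals in fluorescence units and log2 differences, N2ICD minus control, after each array was scaled to its 75th percentile (signals of 190 for N2ICD and 169 for control). A single array per group allows neither a test nor a replicate check, and genotype, animal, dissection and array cannot be told apart. Among 260 probes printed repeatedly, this difference had an SD of 0.16 between spots, and of 0.27, 0.13, 0.081 and 0.055 in groups of 65 probes from dim to bright. It holds no spread between animals. Each member probe had 1 spot per array. In bulk muscle, fewer fibres of a type and less RNA per fibre cannot be told apart. All 8 markers of the skeletal muscle fibre were measured on both arrays. Before scaling, their summed signal was 1183410 in N2ICD muscle and 1090150 in control muscle. These sums are not corrected for the brighter N2ICD array. After scaling, the log2 differences of the 8 markers had a median of 0.14, with 5 above 0 and 3 below.

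Transcripts of the slow heavy chain, of its relative Myh7b and of the type IIa chain were higher in the N2ICD muscle. The type IIx and embryonic chains lay close to their control levels. Type IIb and both measured probes of the perinatal chain were lower by less than 2-fold. Of the 13 member probes, 10 exceeded background clearly on both arrays and 3 on neither. A difference of 2-fold or more upwards was seen in 3 (Myh7, Myh7b and Myh2), beside 1.52% of all 21645 probes that both arrays measured. Downwards it was seen in 0, beside 1.16% of all such probes. The 10 differences ran from -0.66 to 2.21 with a median of 0.01, beside a median of -0.002 over all 21645 such probes. The probe signals, with each array's lowest value well above background, show the 3 separated pairs of member probes.

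**Figure D1:**
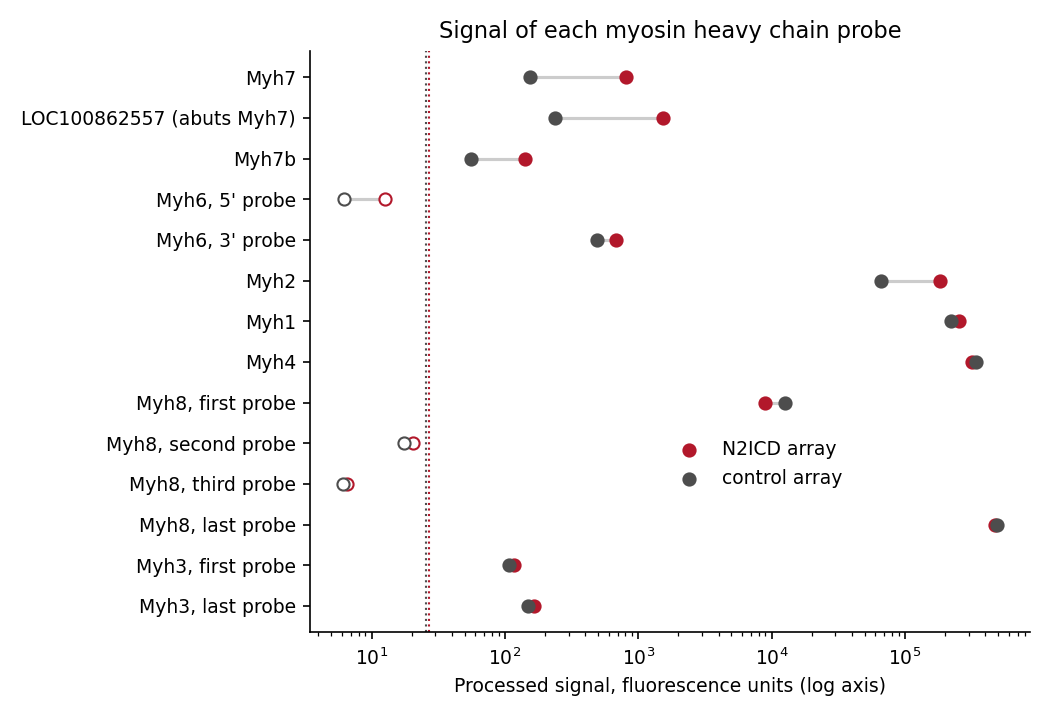
Processed signal of each probe (horizontal, fluorescence units, log axis) on the N2ICD array (red) and the control array (grey), 1 spot per array. Open circles were not well above background, dotted lines are the lowest signal well above background on each array (27.1 for N2ICD, 25.4 for control), and LOC100862557 is the predicted gene whose probe abuts that of Myh7. Myh7, LOC100862557, Myh7b and Myh2 stand apart between arrays, and of the probes drawn the last one of Myh8 is the brightest on each array.

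Myh7 encodes the slow, type I heavy chain, shared by slow fibres and the ventricle of the heart. Its probe (chr14:55589581-55589640, mm9, minus strand, position 5938 of the transcript) gave a signal of 805 in N2ICD muscle and 154 in control muscle, a 4.64-fold difference (log2 2.21) and 17.3 times the spot SD at its level. It ranked 7659 among the 55672 probes in N2ICD and 13748 in control, far below the ranks of the adult fast chains on each array. The adjoining 60-base stretch (chr14:55589521-55589580) is read by a probe named LOC100862557, a predicted gene that the Myh7 probe also lists among its accessions. That probe had 1540 in N2ICD muscle and 239 in control muscle, 5.72-fold higher (log2 2.52). The neighbouring probes, with 0 bases between them, were both past 2-fold in the same direction, and their log2 values differed by 0.30. They may read the same transcript, which was not tested. For comparison, the log2 differences of probes of the same gene had an SD of 0.25 around the gene mean, over 3161 genes. This SD is of single probes, and a difference between probes spreads more widely.

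Myh7b, an ancient relative of Myh7 with low levels in slow fibres and heart, gave a signal of 143 in N2ICD muscle and 55.7 in control muscle (chr2:155459122-155459181, plus strand). The difference was 2.27-fold (log2 1.18), or 4.43 spot SDs, at ranks 14660 in N2ICD muscle and 18914 in control muscle. After normexp background correction it was 0.63, under 2-fold.

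Myh6, the alpha chain of the heart, had 2 probes at opposite ends of the transcript. The one near the 3′ end (position 6003) had 686 in N2ICD muscle and 494 in control muscle, a log2 difference of 0.30. The one near the 5′ end (position 308) had 12.7 in N2ICD and 6.25 in control, not well above background on either. Among 708 other genes whose first and last probes lay at least 3000 bases apart, with the last probe well above background on both arrays, the first probe was on neither array in 39.3%. Some of these pairs may read different transcripts. Of 12 heart markers, 10 were on neither array, among them Myl7, Tnni3, Nppb and Ryr2, and Nppa was above background on the control array alone, at 31.3 for N2ICD and 34.2 for control. Sarcolipin (Sln), also made in skeletal muscle, was the only one measured on both, at 198 in N2ICD muscle and 140 in control muscle.

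Among the adult fast chains, the only difference past 2-fold was in Myh2, the type IIa gene. Its probe (chr11:67010960-67011019, plus strand, position 6023) had 182477 in N2ICD muscle and 65700 in control muscle, 2.47-fold higher (log2 1.30), or 23.9 spot SDs. Its rank was 108 in N2ICD muscle and 336 in control muscle. Myh1 (type IIx) had 252544 in N2ICD muscle and 219872 in control muscle, a log2 difference of 0.03 at rank 57 in N2ICD and 74 in control. Myh4 (type IIb) had 320423 in N2ICD muscle and 339444 in control muscle, at rank 27 in N2ICD and 23 in control. Its difference was -0.26 (-4.68 spot SDs) and turned to 0.27 on the spike-in scale. The order Myh4, Myh1, Myh2 was the same on both arrays, with the caution that a probe's brightness also depends on its sequence, so that signals of different probes are not relative amounts of RNA.

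Differences between members do not depend on the scale of an array. Relative to Myh4, the difference was 5.54-fold for Myh7, 2.94-fold for Myh2, 2.71-fold for Myh7b and 1.22-fold for Myh1. These values still depend on background correction. With normexp, the log2 difference was 0.63 for Myh7b and -0.21 for Myh4.

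**Figure D2:**
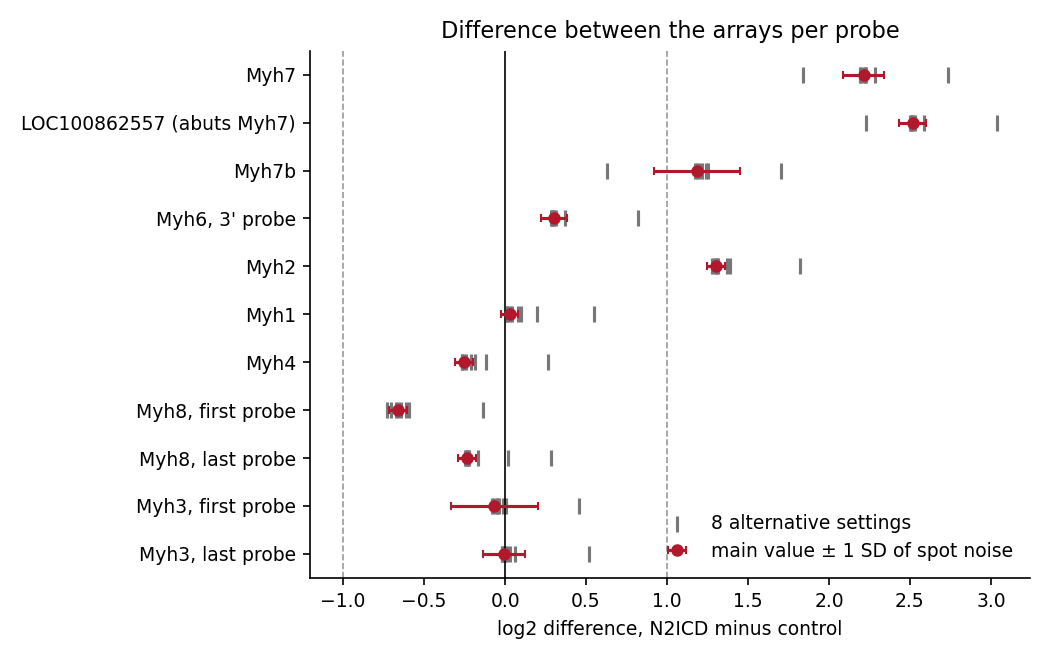
log2 difference, N2ICD minus control, of each probe well above background on both arrays (horizontal). Red points are the main values with 1 SD of spot noise at that level, which holds no spread between animals, grey ticks are 8 alternative settings, and dashed lines mark 2-fold. Myh7 (2.21), its neighbour LOC100862557 (2.52) and Myh2 (1.30) stay beyond 2-fold in every setting drawn, and Myh7b (1.18) in 7 of 8.

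Of the developmental chains, Myh8 (perinatal) was read by 4 probes that differed widely. The last one (position 5937), whose letters are printed above, had 469700 in N2ICD muscle and 490871 in control muscle, rank 3 of all probes in N2ICD and rank 4 in control. Only Aldoa and Acta1 were brighter on the N2ICD array, and only Aldoa, Pvalb and Tnnc2 on the control array. The first one (position 477) had 8983 in N2ICD muscle and 12601 in control muscle, ranks 2012 in N2ICD and 1402 in control. The other 2 (positions 2202 and 2970) were not well above background on either array, at 20.6 and 6.60 in N2ICD and 17.6 and 6.12 in control. Both measured probes were lower in N2ICD, at log2 differences of -0.66 (-12.1 spot SDs) for the first and -0.24 (-4.32 spot SDs) for the last. That of the last turned to 0.29 on the spike-in scale and 0.02 after quantile normalization. The value of the first minus that of the last was -0.42. The SD of 0.25 given above is of single probes around the gene mean, and a difference between probes spreads more widely.

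Besides the Myh3 probe, the last Myh8 probe shared most letters with that of Myh13, the extraocular chain (28 of 43), and Myh13 had 108 in N2ICD muscle and 96.6 in control muscle. The best ungapped overlaps with the Myh1, Myh2 and Myh4 probes matched 21, 19 and 24 letters. Those probes cover 60 bases each, and whether the Myh8 probe reads other heavy chain transcripts was not tested.

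Myh3, the embryonic chain and a usual marker of regenerating fibres, was dim in both of its probes. The first (position 5779) had 116 in N2ICD muscle and 108 in control muscle, a log2 difference of -0.07, and the last (position 5922) had 167 in N2ICD muscle and 149 in control muscle, a difference of -0.01. Both lie within 1 spot SD of 0. Their values differed by -0.06 from each other. On the N2ICD array the last Myh3 probe (rank 13901) lay far below Myh7 (rank 7659), and on the control array the pair lay side by side (ranks 13934 and 13748).

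**Figure D3:**
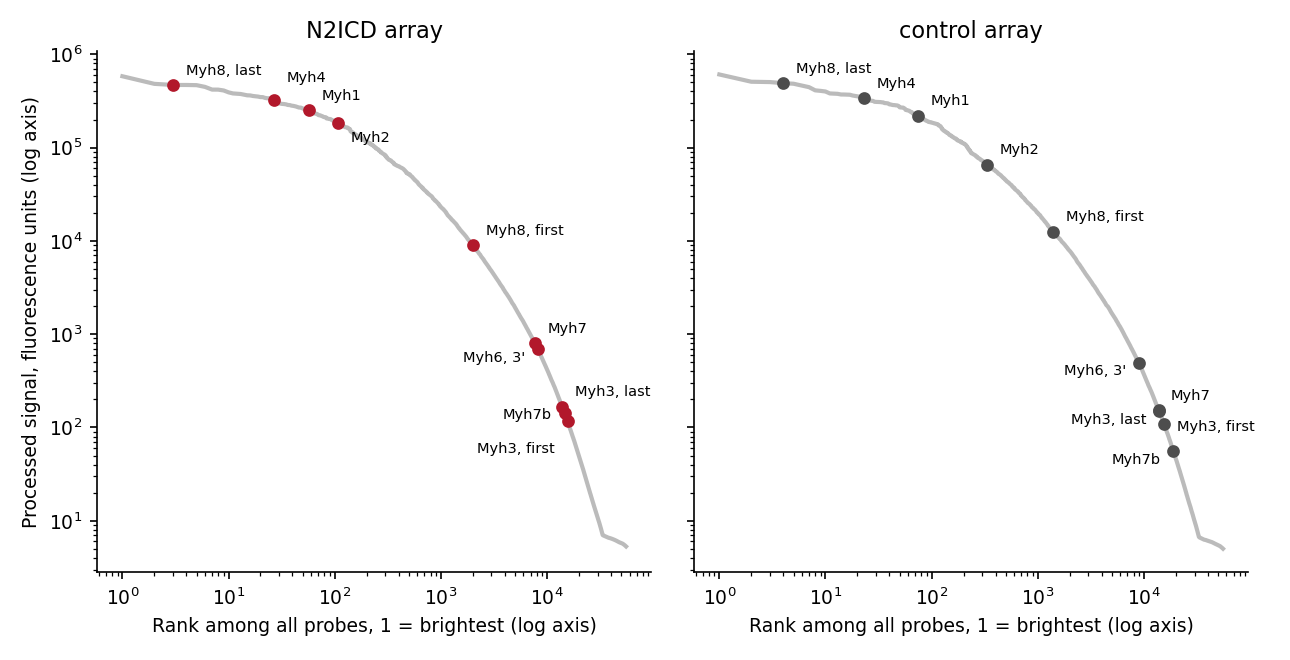
Processed signal against rank (1 is the brightest of 55672 probes, both axes log) on the N2ICD array (left, red) and the control array (right, grey), where points are the 10 heavy chain probes well above background on both arrays and the line is all probes. The last Myh8 probe and Myh4 are at the bright end of both arrays, Myh2 has rank 108 in N2ICD and 336 in control, and Myh7 lies near the Myh3 probes on the control array alone.

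The genes lie at 3 loci, whose other probes are given here for comparison. On chromosome 11, where Myh3, Myh2, Myh1, Myh4, Myh8 and Myh13 follow each other, 4 other probes were measured on both arrays within 100 kb of the members. They ran from -0.56 to 0.06, and 0 passed 2-fold. The gene 2310065F04Rik, between Myh3 and Myh2, had 794 in N2ICD muscle and 1019 in control muscle (log2 -0.53). On chromosome 14, which holds Myh6 and Myh7, 15 other probes were measured. The only one beyond 2-fold was that of LOC100862557, which abuts the Myh7 probe and may read the same transcript. On chromosome 2, 4 other probes ran from -0.09 to 0.30.

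**Figure D4:**
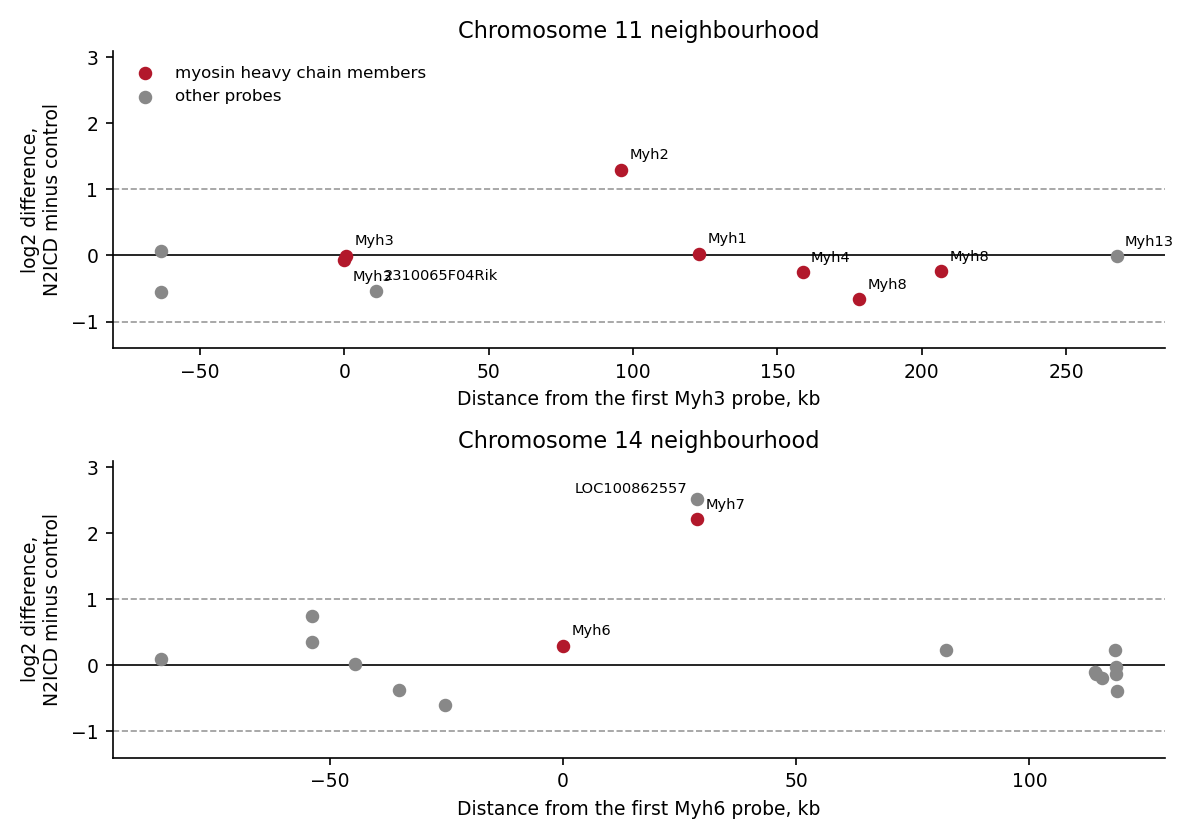
log2 difference, N2ICD minus control, of every probe well above background on both arrays (vertical) against distance in kb from the first member probe, for chromosome 11 (top) and chromosome 14 (bottom), with members in red, other probes in grey and dashed lines at 2-fold. Myh2 (1.30) stands alone on chromosome 11, and Myh7 and LOC100862557 stand together on chromosome 14.

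Other slow contractile genes were mostly higher in N2ICD too. Of 13 measured, 11 were above 0, where 50.7% of all genes were, and the median was 0.54, beside 0.01 over all genes. At least 2-fold higher were 3, where 1.43% of all genes were. These were the Z-disc protein Myoz2 (13900 in N2ICD muscle and 3531 in control muscle, 3.49-fold), Csrp3, a LIM-domain protein (3.37-fold), and the stretch-responsive Ankrd2 (2.30-fold). Myl2, the slow regulatory light chain that binds the Myh7 product, was lower, with 902 in N2ICD muscle and 1777 in control muscle (log2 -1.15), where 0.893% of all genes were 2-fold lower. The spike-in scale set the median over all genes to 0.53. On it, the slow list had a median of 1.06, with 7 genes at least 2-fold higher and 0 lower. Of all genes, 7.76% were 2-fold higher on that scale and 0.161% lower. After median scaling 5 genes of the slow list were 2-fold higher, where 1.67% of all genes were. Of 14 fast contractile genes, 13 were below 0 and 0 passed 2-fold. Their median was -0.24, or 0.28 on the spike-in scale, with the calcium store protein Casq1 at -0.55, the fast light chain Mylpf at -0.47 and the calcium buffer Pvalb at -0.42.

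By likeness of the scaled level on both arrays, over 2 arrays and the 48 measured genes of the slow, fast, embryonic and thick filament lists, Myh7 was nearest to Tnnt1, Tpm3 and Tnni1, at distances of 1.26, 1.33 and 2.04 on the log2 scale. Myh7b was nearest to Myog (0.58), Tnnc1 (0.62) and Atp2a2 (0.65), and Myh2 to Myom2 (1.05), Myoz1 (1.12) and Mybpc2 (1.21). Across probes, such a distance also holds probe brightness. The genes nearest to Myh2 had log2 differences of -0.17, -0.16 and -0.36, where Myh2 had 1.30. Those nearest to Myh7 had 0.54, 0.40 and 0.65, and those nearest to Myh7b had 0.43, 0.99 and 0.30.

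Of 9 measured genes of embryonic and regenerating muscle, 2 were at least 2-fold lower in N2ICD, where 0.893% of all genes were. They were Actc1, the cardiac actin of developing muscle, with 1327 in N2ICD muscle and 19171 in control muscle (log2 -4.03), and the thick filament protein Mybph, with 124 in N2ICD muscle and 918 in control muscle (-3.07). The list median was -0.17, or 0.35 on the spike-in scale, and Tnnt2 had 0.48. On the spike-in scale 1 gene of this list was 2-fold higher, where 7.76% of all genes were and the median over all genes was 0.53.

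Of 14 measured genes that fold myosin or build the thick filament, 12 were above 0, beside 50.7% of all genes. The median was 0.20. At least 2-fold higher was 1, where 1.43% of all genes were. It was the M-band protein Myom3 (2.04-fold), with 3098 in N2ICD muscle and 1350 in control muscle. Mybpc1 had 0.40 and Mybpc2, the fast myosin-binding protein, -0.36. With quantile normalization or loess, 0 genes of the list passed 2-fold. Of 16 measured regulators tied to slow fibres, 14 were above 0, beside 50.7% of all genes. Their median was 0.25 and 0 passed 2-fold. On the spike-in scale 16 were above 0, their median was 0.78 and 6 were at least 2-fold higher. Over all genes that scale gave a median of 0.53, with 7.76% at least 2-fold higher. By the main values of these regulators, Esrrg led with 0.83, before the calcineurin subunit Ppp3ca (0.76) and Mef2c (0.67). A probe of Nfatc2, the calcineurin target, exceeded background in N2ICD muscle only, with 78.9 for N2ICD and 15.9 for control, at least 2.76-fold higher. For this bound the dim side was set to whichever was larger, its own value or the faintest one still clearly above background on that array. Another Nfatc2 probe had 886 in N2ICD muscle and 668 in control muscle, a log2 difference of 0.24.

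Of 15 regulators tied to fast fibres, 9 were above 0, near the share of 50.7% over all genes, with a median of 0.10. At least 2-fold higher was 1, where 1.43% of all genes were. It was Eya4, a coactivator of homeobox factors (2.60-fold, 141 on the N2ICD array, 47.9 on the control array). Fnip1 had 0.55. With normexp, 0 of these regulators passed 2-fold, and on the spike-in scale 2 did. On that scale 7.76% of all genes were at least 2-fold higher, which also applies to the spike-in counts below. Of the class II heavy chains outside the sarcomeric set, 5 were measured, with a median of 0.26, Myh10 at 0.49, Myh14 at 0.39, Myh11 (smooth muscle) at 0.26, and 0 past 2-fold (1 on the spike-in scale). Among skeletal fibre markers the median was 0.14, with Mb at 0.64, Chrna1 at 0.54 and Ckm at -0.52, and 0 past 2-fold (2 on the spike-in scale). Of the smooth muscle markers 5 were measured, with a median of 0.02, Smtn at 0.35, Des at 0.28 and Acta2 at -0.22, and their part in the heavy chain values was not tested.

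**Figure D5:**
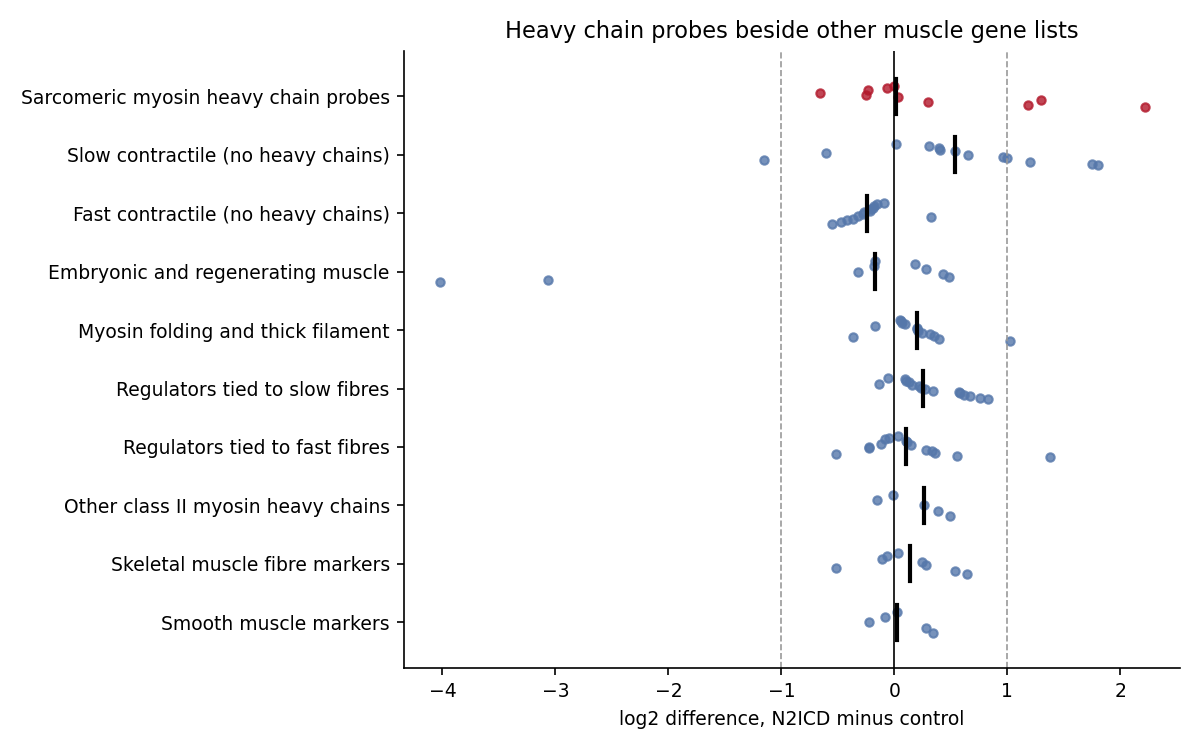
log2 difference, N2ICD minus control (horizontal), of the 10 measured heavy chain probes (red) and of the measured genes of 9 other lists (blue), with list medians as black bars and dashed lines at 2-fold. Heavy chain probes spread from -0.66 to 2.21 around a median of 0.01. Slow contractile genes have a median of 0.54 and fast ones of -0.24 (0.28 on the spike-in scale, where all genes have 0.53).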

How the data were processed

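Total RNA of 1 N2ICD and 1 control muscle sample was measured, with groups read from the labels. Spot intensity values in the scanner files came from the authors' run of Agilent Feature Extraction (version 10.10.1.1, per the file headers). They are background-subtracted, not normalized between arrays, and placed on mm9. The authors' deposited table holds, per probe, an unsigned fold (ratio) with a direction and a log2 value for each array. The steps behind that table are not given in the sources used.

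From the processed signal, log2 values were computed here and each array's 75th percentile over its 59305 non-control spots was subtracted. Control spots and 215 spots with outlier flags were dropped before repeated spots were averaged. Member probes were kept apart. List genes took the mean of those probes that exceeded background clearly on each array. Differences were counted at 2-fold without a test, because the number of arrays, 1 per group, limits the precision.

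The members and 10 gene lists were chosen with earlier results of these data known. Named were all member probes; in each list, genes past 2-fold and the 3 largest absolute differences; the 3 genes of the slow, fast, embryonic and thick filament lists most alike each member past 2-fold; and neighbours past 2-fold within 100 kb. A gene that met this rule is not reported here. 2310065F04Rik, Myh13 and the list examples in the heart and one-array groups were chosen after their values were seen, as was the spacing of 3000 bases between probes. Alternatives were normexp background correction (offset 50), median, spike-in and other percentile scaling, quantile normalization, loess, other filters and thresholds, and the deposited table. The steps were tested on simulated data. Analyses used R 4.3.3 with limma 3.58.1, and Python 3.11.15 with pandas 2.3.3 and numpy 2.4.6. RefSeq sequences and names are of GRCm38.p6, and no coordinates were converted.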

Additional observations from a re-analysis of the deposited data

How the results depend on the processing

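Under the 8 settings that recompute each probe's difference, Myh7 ran from 1.84 to 2.74, Myh2 from 1.28 to 1.82 and LOC100862557 from 2.23 to 3.04. Myh7b ran from 0.63 to 1.71 and was under 2-fold with normexp background correction, which left 2 member probes higher. The spike-in scale (7 probes) moved the median over all genes to 0.53, and there the differences of Myh4, of the last Myh8 probe and of both Myh3 probes were above 0, while the first Myh8 probe had -0.14. Ranks moved by over 1.5 times in 1 of 46 values, the last Myh8 probe on the control array. Part of these values ranked only probes well above background, which left every rank unchanged. Only ranks by spot mean signal showed any shift. At a 4-fold threshold 1 member probe was higher, and at 1.5-fold 1 was lower (Myh8, first probe). In the authors' deposited table Myh7 was 4.687-fold, Myh2 2.491-fold and Myh7b 2.296-fold up. Over all genes, 195 were higher and 122 lower; the counts were 82 and 43 with normexp, 1060 and 22 on the spike-in scale, 365 and 328 with probes above background on at least 1 array, 836 and 968 with no filter on dim probes, 695 and 662 at 1.5-fold, and 20 and 9 at 4-fold. No paired analysis was possible because each group has 1 sample. The spread between animals was not measured.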

Other observations

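AATAAA, the letters of the common polyadenylation hexamer, stood in the Myh2 probe, the later Myh6 probe, both Myh3 probes and the LOC100862557 probe, and in none of the other member probes. On the array as a whole, 5602 of 55681 probes held it. Igf2, listed with the genes of embryonic and regenerating muscle, was well above background in control muscle only, with signals of 29.3 in N2ICD muscle and 38.1 in control muscle.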
